A study of Mus musculus with 12 samples.

Results

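The genes described here encode the cofactors through which nuclear receptors act on chromatin and on RNA polymerase: the subunits of Mediator, the Ncoa coactivators, the histone deacetylases, the sirtuins, the arginine methyltransferases and 5 histone acetyltransferases. Members were taken by symbol, as every gene whose name starts with Med, Ncoa, Hdac, Prmt or Kat followed by a digit, together with Sirt1 to Sirt7, Crebbp and Ep300. This gave 68 of the 12774 gene symbols measured. There were 30 Mediator genes, 7 Ncoa genes, 11 classical histone deacetylases, 7 sirtuins, 8 arginine methyltransferases and 5 acetyltransferases (Kat2a, Kat2b, Kat5, Crebbp and Ep300). Their levels were followed in 12 libraries of sequence tags from C17.2, a line of neural progenitor cells of the mouse. The C17.2a line stably carried a tagged thyroid hormone receptor alpha and the C17.2b line a tagged receptor beta. Both were held without serum for 24 h and then kept for 6, 12 or 24 h with or without 1e-07 M of T3, triiodothyronine, the form of thyroid hormone that binds its receptors. Each line, treatment and time had 1 library, so no value has a replicate within its group. Every library came from cells with an added receptor, and whether each line is 1 clone was not given in the sources used here.

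As background, a thyroid hormone receptor sits on DNA with or without hormone. Without T3 it holds a repressor complex that contains a corepressor and a histone deacetylase, and the removal of acetyl groups keeps chromatin closed. With T3 the receptor changes shape, releases that complex and binds the p160 coactivators (Ncoa1, Ncoa2 and Ncoa3), which bring the acetyltransferases Crebbp and Ep300 and arginine methyltransferases. Mediator, a large complex with head, middle and tail modules and a detachable kinase module, then joins the receptor to RNA polymerase II, chiefly through its subunit Med1. The class IIa deacetylases (Hdac4, Hdac5, Hdac7 and Hdac9) shuttle between nucleus and cytoplasm and repress partners such as the MEF2 factors, whereas sirtuins depend on NAD+.

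The member on which the hormone result turned was Hdac9, and the 250 bases before each of its 2 annotated starts are shown because the search for a receptor half-site gave a different answer at each. They come from RefSeq on GRCm38.p6, which is not the build of the deposited table (mm9), and are written 5′ to 3′ along the gene. Capitals mark AGGTCA, the half-site that nuclear receptors bind, read on either strand.
Hdac9 start 1, chr12:34528890-34529139, minus strand: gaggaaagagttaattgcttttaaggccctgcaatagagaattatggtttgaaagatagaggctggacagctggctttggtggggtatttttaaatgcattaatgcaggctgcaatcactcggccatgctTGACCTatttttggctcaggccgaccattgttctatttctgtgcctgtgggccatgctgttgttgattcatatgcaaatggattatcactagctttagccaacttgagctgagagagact
Hdac9 start 2, chr12:34917096-34917345, minus strand: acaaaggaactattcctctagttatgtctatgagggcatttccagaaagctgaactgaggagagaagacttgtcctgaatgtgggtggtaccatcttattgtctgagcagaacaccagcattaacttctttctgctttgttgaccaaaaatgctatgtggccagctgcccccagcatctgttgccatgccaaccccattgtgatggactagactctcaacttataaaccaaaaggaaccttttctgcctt
The first sequence held 1 half-site, on the opposite strand, and the second held none. Across the 58 members with a listed promoter, 12 of 74 promoters (16.2%) held the motif, next to 14.0% of all 32851 promoters of the same length. The 11 members with it were Hdac7, Hdac9, Med6, Med7, Med9, Med10, Med27, Med28, Med29, Ncoa4 and Sirt5. A match describes the letters only, and the tag table does not say from which start a transcript came.

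Levels are given in deposited RPM units, a gene's tags relative to all tags of its library. The tag depth implied by the values ran from 7120000 to 19100000 per library, and 3 tags then equal 0.157 to 0.421 RPM. The known T3 target Hr lay at 1.69 to 9.36 RPM in the 6 untreated libraries and at 34.25 to 115.22 RPM in the 6 with T3. Of 10 neural progenitor markers 8 were measured, Pax6 and Sox1 being absent. Nes lay at 70.23 to 641.71 RPM and Sox2 at 61.96 to 305.94 RPM. Fabp7 was lower, at 1.87 to 22.1 RPM, and Msi1 did not exceed 4.35 RPM. Markers of other cell types were mixed as well. Sox10 (oligodendrocyte) lay at 134.9 to 758.65 RPM and Tubb3 (neuron) at 44.48 to 576.39 RPM. From the same 2 lists Mbp did not exceed 2.88 RPM and Snap25 did not exceed 1.57 RPM. The fibroblast collagen gene Col1a1 was high, at 747.16 to 5353.24 RPM, while the microglial marker Cx3cr1 did not exceed 0.42 RPM. The C17.2a T3 24 h library stood apart. The summed level of 4 fibroblast markers was 7311.33 RPM there and 1289.39 to 4882.97 RPM in the other 11, and that of 4 oligodendrocyte markers was 234.5 RPM there and 310.49 to 948.25 RPM in the others. For the shared T3 response and for the lines, values without the C17.2a 24 h pair are given beside those that it moves most.

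Hdac9 was the only member that passed the test for T3 across the 6 pairs of a treated and an untreated library, and it fell. In C17.2a cells Hdac9 measured 1.78, 1.51 and 3.67 RPM at 6, 12 and 24 h without T3 and 1.19, 0.28 and 0.12 RPM with it. In C17.2b cells the values were 7.07, 4.48 and 6.1 RPM without T3 and 2.77, 1.24 and 0.56 RPM with it. Each treated library lay below its untreated partner. Within each line no treated value reached the lowest untreated one, while between the lines the ranges overlapped. The share of all genes separated in this way within each line is not given here. On the scale of log2(RPM + 1) the difference was -1.33 (SE 0.24, limma with Benjamini-Hochberg adjustment over 10577 genes, adjusted p = 0.0123), the same sign in 6 of 6 pairs. This is a gene with few tags: the treated libraries held about 12, 4 and 1 tags in C17.2a and 26, 14 and 4 in C17.2b, against 23, 17, 36, 135, 50 and 45 in their partners. At 24 h the exact Poisson 95% limits were 0.00302 to 0.664 RPM with T3 and 2.57 to 5.09 RPM without it in C17.2a, and 0.153 to 1.44 RPM and 4.45 to 8.17 RPM in C17.2b. These limits rest on implied tags and cover counting error only. The value of 0.12 RPM lies under the 3-tag level of 0.358 RPM in its library. Hdac9 overlaps 4 predicted genes in the annotation, and whether the tags were counted by strand was not given.

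**Figure D1:**
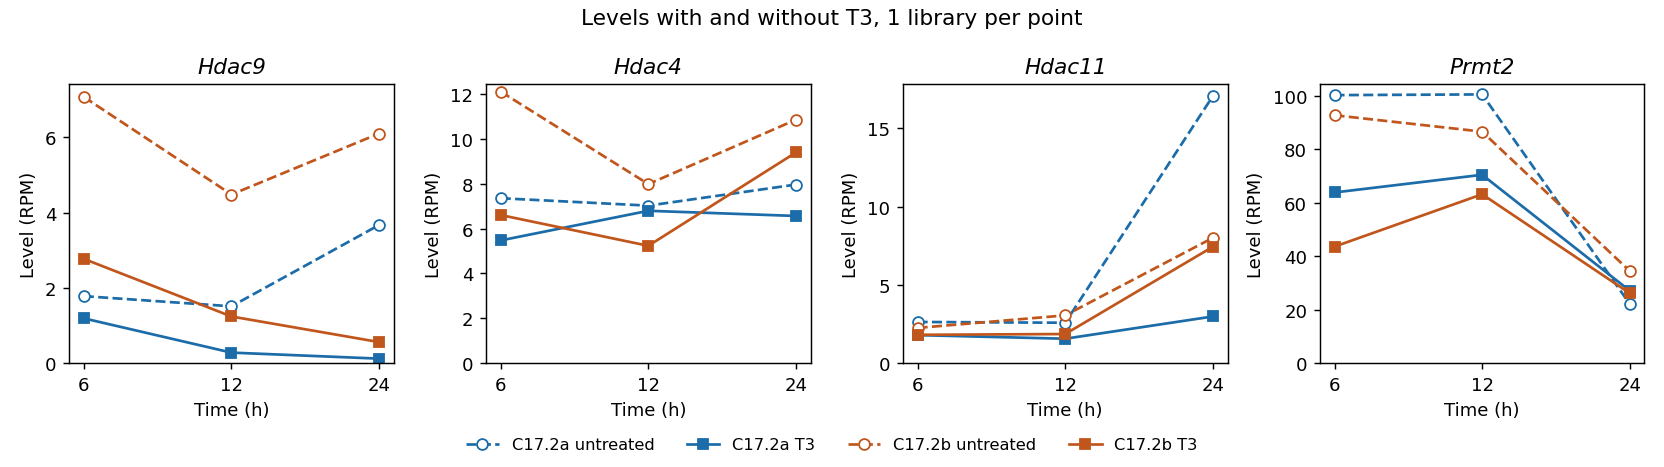
Levels of Hdac9, Hdac4, Hdac11 and Prmt2 in RPM on linear axes from 0 against time in hours, 1 library per point, with open markers for untreated and filled markers for T3. For Hdac9 every treated library lies below its untreated partner, from 1.19 against 1.78 RPM to 0.12 against 3.67 RPM in C17.2a and from 2.77 against 7.07 RPM to 0.56 against 6.1 RPM in C17.2b.

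The other 63 tested members did not pass. One of 64 members was called (1.56%), where 6.45% of all 10577 genes were called, with 2.35% of all genes called downwards. The median difference was -0.025 over the members and -0.007 over all genes. An unadjusted p under 0.05 was reached by 7 of 64 members and by 18.1% of all genes. One sign in all 6 pairs was seen for Hdac4, Hdac9 and Hdac11, 3 of 64 members (4.69%), beside 14.3% of all genes. The 4 members left out for low values were Hdac8, Med31, Sirt5 and Prmt10, each at 0.82 RPM or less in every library and listed as N/A in at least 2. Because no label names separate cultures, each p-value here weighs a difference against the spread over the 6 pairs.

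Among the coactivators that the liganded receptor recruits, none passed. Ncoa1 ranged from 14.89 to 21.97 RPM without T3 and from 13.11 to 23.83 RPM with it, a difference of -0.04 (SE 0.10). Ncoa2 differed by -0.04 (SE 0.14), Ncoa3 by 0.21 (SE 0.14), Crebbp by -0.00 (SE 0.19) and Ep300 by 0.12 (SE 0.11). Ncoa4, which also acts as the receptor that sends ferritin to autophagy, was higher with T3 in 5 of 6 pairs and far lower in the C17.2a 24 h pair, at 4.08 RPM without and 0.24 RPM with T3. The acetyltransferases Kat2a (GCN5) and Kat2b (PCAF) differed by -0.01 (SE 0.19) and 0.19 (SE 0.14). The smallest of these limma adjusted p-values was 0.472, for Ncoa3, and none of these shows that a level stayed the same.

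Mediator genes spread around 0, with 12 of 29 positive, a median of -0.02 and no call. Without the C17.2a 24 h pair 17 of 29 were positive, the median was 0.06 and Med27 was called lower. Med1, the subunit that binds liganded receptors, was at 62.55, 80.13 and 45.93 RPM without T3 and 93.63, 87.26 and 78.25 RPM with it in C17.2a. In C17.2b Med1 was at 131.15, 72.02 and 41.24 RPM without T3 and 112.79, 92.63 and 48.08 RPM with it. It was thus higher with T3 in 5 of 6 pairs, the exception being C17.2b at 6 h, and the difference of 0.30 (SE 0.13) did not pass (limma adjusted p = 0.263). Med13, of the kinase module, differed by 0.28 (SE 0.12, limma adjusted p = 0.26), and the tail subunit Med27 by -0.27 (SE 0.11, limma adjusted p = 0.26).

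The deacetylases had a family median of -0.15, with 2 of 10 positive, and of -0.06, with 4 of 10 positive, without the C17.2a 24 h pair. Hdac3, the deacetylase of receptor corepressor complexes, differed by -0.05 (SE 0.17), and the class I enzymes Hdac1 and Hdac2 by -0.42 (SE 0.47) and 0.08 (SE 0.15). Without that pair Hdac3, Hdac1 and Hdac2 stood at 0.12, 0.16 and -0.07. Hdac4, of the same class as Hdac9, was at 7.35, 7.02 and 7.96 RPM without T3 and 5.47, 6.79 and 6.56 RPM with it in C17.2a. In C17.2b Hdac4 was at 12.1, 7.98 and 10.85 RPM without T3 and 6.6, 5.23 and 9.39 RPM with it. All 6 treated values lay below their partners, but the difference of -0.36 (SE 0.13) did not pass (limma adjusted p = 0.191). Hdac11, the class IV enzyme, differed by -0.64 (SE 0.26, limma adjusted p = 0.232), most of it from C17.2a at 24 h, where it was at 17.05 RPM without and 2.98 RPM with T3. Leaving that pair out gave -0.33 for Hdac11 (SE 0.13, limma adjusted p = 0.108). Sirt1, a deacetylase of histones and p53, differed by 0.20 (SE 0.14, limma adjusted p = 0.523), and 1 of 6 sirtuins was positive, or 3 of 5 without that pair.

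Among the arginine methyltransferases Prmt1, which methylates histone H4 and is a receptor coactivator, differed by -0.05 (SE 0.11). Prmt2, also described as a coactivator, had the second smallest p of the members at -0.46 (SE 0.16, limma adjusted p = 0.143). It was at 100.2, 100.47 and 22.15 RPM without T3 and 63.81, 70.42 and 27.08 RPM with it in C17.2a. In C17.2b Prmt2 was at 92.68, 86.55 and 34.45 RPM without T3 and 43.57, 63.14 and 26.14 RPM with it. Treated values were lower in 5 of 6 pairs, and the exception was again C17.2a at 24 h.

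Without the C17.2a 24 h pair, 4 members were called, next to 15.0% of all genes. Hdac9 fell by 1.18 (SE 0.22, limma adjusted p = 0.00388), Prmt2 fell by 0.61 (SE 0.10, limma adjusted p = 0.00234) and Med27 fell by 0.35 (SE 0.09, limma adjusted p = 0.0195). Ncoa4 rose by 0.50 (SE 0.14, limma adjusted p = 0.0366). Hdac9 no longer passed when the C17.2b 12 h pair was left out (-1.33, limma adjusted p = 0.0541) or when the pairing of libraries was ignored (-1.33, limma adjusted p = 0.0959). The size of its difference depends on the pseudocount, from -0.57 with 5 to -1.65 with 0.5 over the settings tried, each with the same sign.

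**Figure D2:**
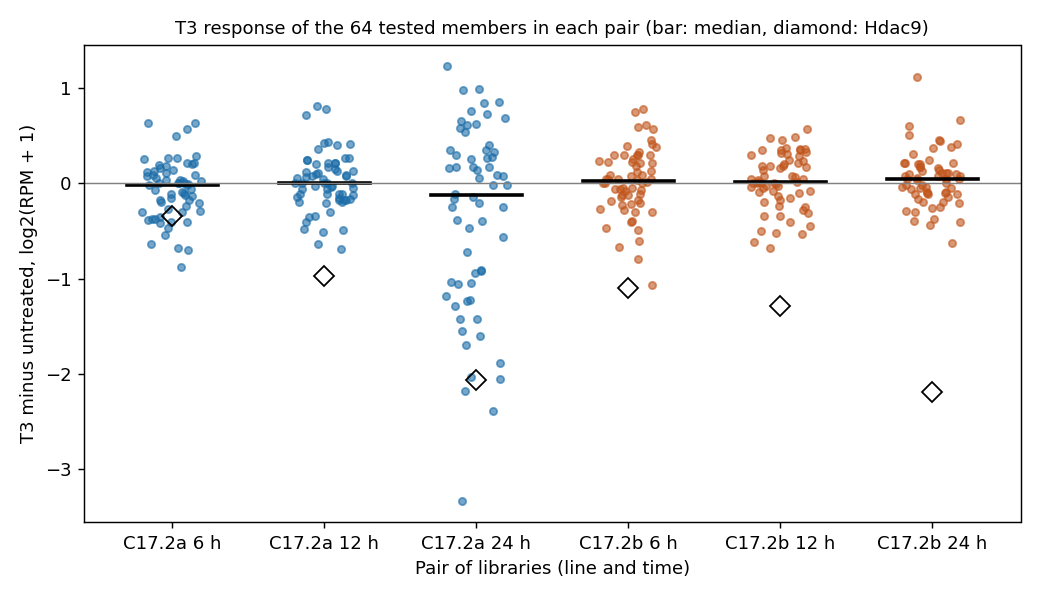
Difference between T3 and untreated on the log2(RPM + 1) scale for the 64 tested members in each of the 6 pairs, 1 point per member, with a bar at the median and a diamond for Hdac9. The Hdac9 diamond lies at -0.34, -0.97 and -2.06 in C17.2a and at -1.10, -1.29 and -2.19 in C17.2b at 6, 12 and 24 h, and the C17.2a 24 h pair has the widest scatter.

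By line, Hdac9 differed by -1.13 (SE 0.35, limma adjusted p = 0.176) in C17.2a and by -1.52 (SE 0.35, limma adjusted p = 0.0598) in C17.2b. No member was called in either line, where 1.37% and 3.11% of all genes were. An unadjusted limma p under 0.05 was reached by 8 of 64 members in C17.2a, beside 16.5% of all genes. In C17.2b it was reached by 4 of 64 members, beside 13% of all genes. In C17.2a the other small p-values belonged to Sirt7 (-1.15, SE 0.35), Kat5 (-0.76, SE 0.25), Hdac11 (-1.01, SE 0.34) and Med1 (0.48, SE 0.17). Without the C17.2a 24 h pair these were smaller, at -0.53 for Sirt7, -0.44 for Kat5, -0.43 for Hdac11 and 0.35 for Med1, and Hdac9 was at -0.66. In C17.2b they belonged to Prmt2 (-0.64, SE 0.22), Hdac4 (-0.50, SE 0.19), Kat2b (0.41, SE 0.18) and Med9 (-0.28, SE 0.14). With the spread taken from the C17.2b libraries alone, Hdac9 (limma adjusted p = 0.00339) and Prmt2 (limma adjusted p = 0.0234) were called at the same differences, 2 of 61 members beside 10.7% of all genes.

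No member and no gene (0.0%) had a response that differed between the lines under limma. An unadjusted limma p under 0.05 was seen for 583 genes (5.51%) and 1 of 64 members. That member was Sirt7, a nucleolar sirtuin, at 1.14 for C17.2b minus C17.2a (SE 0.49, limma adjusted p = 0.722), or 0.52 (SE 0.22, limma adjusted p = 0.727) without the C17.2a 24 h pair. The next were Hdac3, Med20, Hdac2 and Med28.

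By time, Hdac9 differed by -0.72 (SE 0.28, limma adjusted p = 0.575) at 6 h, by -1.13 (SE 0.28, limma adjusted p = 0.227) at 12 h and by -2.12 (SE 0.28, limma adjusted p = 0.0277) at 24 h. It was the only member called at 24 h, where 1.06% of genes were called, with 0.378% of all genes called lower. No member was called at 6 h (0.161% of genes) or 12 h (0.492%). The change from 6 to 24 h was -1.40 (SE 0.39) and did not pass (limma adjusted p = 0.726). No gene passed that test (0.0%), while 593 genes (5.61%) and 4 of 64 members had an unadjusted limma p under 0.05. The Hdac9 call at 24 h was lost when any of the 6 h or 12 h pairs was left out (limma adjusted p from 0.107 to 0.122). Without the C17.2b 24 h pair, so that C17.2a alone stood for 24 h, 30 members were called at 24 h, beside 41.6% of genes, and 24 for the change from 6 to 24 h, beside 32.3%. Prmt2 had the smallest p at 6 h, at -0.86 (SE 0.22, limma adjusted p = 0.265), followed after Hdac9 by Hdac4 (-0.58, SE 0.25), Med27 (-0.43, SE 0.19) and Ncoa5 (0.61, SE 0.36). At 12 h the members after Hdac9 were Prmt2 (-0.48, SE 0.22), Med27 (-0.35, SE 0.19), Med25 (0.41, SE 0.23) and Med7 (-0.63, SE 0.36). For the change from 6 to 24 h they were Ncoa5 (-1.42, SE 0.50), Prmt2 (0.80, SE 0.31), Ncoa4 (-1.67, SE 0.67) and Kat2a (-0.91, SE 0.39).

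The C17.2a 24 h pair is described alone because it had the most members past 2-fold. Of 55 members with at least 50 tags in this pair, 14 were at least 2-fold lower with T3 and 2 at least 2-fold higher (29.1%), beside 25.9% of all genes. In the other 5 pairs 0 to 2 members passed that fold, from 0.0% to 3.39% of members and from 3.77% to 6.8% of genes. Hdac1 was at 46.14 RPM without and 3.7 RPM with T3 in C17.2a at 24 h, and at 37.71 and 39.11 RPM in C17.2b. Sirt7 was at 21.74 and 3.34 RPM in C17.2a and at 17.23 and 18.5 RPM in C17.2b. Both genes were thus low in 1 treated library and not in the other. The remaining lower members were Hdac6, Hdac11, Kat2a, Kat5, Med11, Med13l, Med16, Med20, Med22, Ncoa5, Sirt2 and Sirt6. Those higher were Med6, of the head, at 21.43 and 43.42 RPM, and Med7, of the middle module, at 22.46 and 54.15 RPM. Elsewhere Ncoa4 was past 2-fold in C17.2a at 12 h, higher with T3, as were 3.81% of genes in either direction. Hdac9 and Prmt2 were lower in C17.2b at 6 h (5.22% of genes), Hdac9 was lower in C17.2b at 12 h (4.93%), and Med23 was higher in C17.2b at 24 h (6.8%). In its other pairs, those of 24 h among them, Hdac9 had under 50 tags and was not read for fold. The C17.2a T3 24 h library was the lowest of all 12 for 17 of 64 members (26.6%, against 15.7% of genes) and the highest for 14 (21.9%, against 21.6%). The part that the marker sums of this library play in these values was not tested.

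Without T3 the lines differed in 3 of 63 tested members, 1 higher and 2 lower in C17.2b, where 8.85% of genes were called, 2.93% higher and 5.92% lower. Hdac9 was higher in C17.2b, at 7.07, 4.48 and 6.1 RPM against 1.78, 1.51 and 3.67 RPM in C17.2a. That difference was 1.09 (SE 0.22, limma adjusted p = 0.0146). Kat2b, the acetyltransferase PCAF, was lower in C17.2b at each time, with 11.1, 11.12 and 30.25 RPM against 24.43, 16.26 and 43.69 RPM (-0.70, SE 0.17, limma adjusted p = 0.0273). Med28, a tail subunit, was lower likewise, with 19.75, 20.18 and 42.32 RPM against 27.6, 27.98 and 68.28 RPM (-0.53, SE 0.13, limma adjusted p = 0.0358). For Kat2b and Med28 the ranges of the lines overlapped because both genes rose with time. Without the 6 h libraries no member was called, with limma adjusted p = 0.129 for Hdac9 and 0.241 for Kat2b. Kat2b also failed without a filter on low values (limma adjusted p = 0.0622). The Med28 call was lost in 7 of 10 alternatives, among them median-ratio scaling (limma adjusted p = 0.071), no filter (0.0582), all 12 libraries (-0.32, 0.118) and leaving out any 1 time. The genes called in all were 299 higher and 603 lower in C17.2b, or 344 and 444 with that scaling.

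Between 6 and 24 h without T3, 32 of 63 tested members were called (50.8%), 24 higher and 8 lower, next to 56.1% of all genes, 43.0% higher and 13.1% lower. The untreated 24 h libraries held fewer implied tags, 9800000 in C17.2a and 7370000 in C17.2b, than those of 6 h, 12900000 and 19100000. Whether this difference in depth plays a part in the calls was not tested. The median of all genes was itself 0.40 at 24 h relative to 6 h, and scaling each library by median ratios took it to -0.03. Under that scaling 13 members were called higher and 14 lower, 27 in all, next to 23.9% and 26.6% of genes and 50.5% in all. The median of the members was 0.28 as deposited and -0.13 after scaling. Directions below are given for the 21 members called the same way under both scalings, 13 higher and 8 lower.

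The deacetylases supplied the strongest rises. Hdac10, a class IIb enzyme that acts on polyamines, was at 2.71 RPM at 6 h, 2.75 at 12 h and 22.46 at 24 h in untreated C17.2a cells. In untreated C17.2b cells Hdac10 was at 4.5, 4.75 and 26.59 RPM. Its 24 h levels stood above all earlier ones, and so did those with T3, at 11.45 and 29.16 RPM. It rose by 2.49 (SE 0.23, limma adjusted p = 3.32e-05), or by 2.05 after median-ratio scaling. Hdac11 rose from 2.63 to 17.05 RPM in C17.2a and from 2.25 to 8.0 RPM in C17.2b (1.89, SE 0.30, limma adjusted p = 0.000536, and 1.47 scaled). Hdac1 rose by 1.39 (SE 0.26, limma adjusted p = 0.00152, and 0.92 scaled), but with all 12 libraries in the fit its call was lost (0.44, limma adjusted p = 0.521), with C17.2a T3 24 h at 3.7 RPM. Hdac7, a class IIa enzyme, fell by 0.77 (SE 0.22, limma adjusted p = 0.0133, and -1.25 scaled), from 106.46 to 48.18 RPM in C17.2a and from 97.68 to 73.38 RPM in C17.2b. With all 12 libraries except the C17.2a 24 h pair the Hdac7 call was lost (-0.27, limma adjusted p = 0.0597). In all, 5 deacetylases were called higher and 1 lower of 10, or 3 and 2 after scaling. Beside them stood 43.0% and 13.1% of all genes, or 23.9% and 26.6% after scaling.

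Of 29 Mediator subunits 11 were called higher and 3 lower (48.3% in all, next to 56.1% of genes), or 6 and 7 of 28 after scaling. In the middle module Med26, which passes polymerase to the elongation machinery, rose from 1.08 to 4.49 RPM in C17.2a and from 0.89 to 5.43 RPM in C17.2b (1.58, SE 0.25, limma adjusted p = 0.000491). Med4 rose from 8.97 to 25.01 RPM and from 9.06 to 28.48 RPM (1.47, SE 0.20, limma adjusted p = 0.000229). In the same module Med21 fell from 142.26 to 61.85 RPM and from 159.75 to 76.91 RPM (-1.12, SE 0.15, limma adjusted p = 0.000201). Med1 fell from 62.55 to 45.93 RPM and from 131.15 to 41.24 RPM (-1.04, SE 0.26, limma adjusted p = 0.00727). After median-ratio scaling these 4 stood at 1.23, 1.01, -1.60 and -1.52. In the head, Med11 (1.18, SE 0.22) and Med20 (0.98, SE 0.19) rose and Med17 (-0.78, SE 0.23) fell, and in the tail Med15 (1.19, SE 0.16) and Med28 (1.17, SE 0.16) rose. Scaled, these 5 stood at 0.74, 0.50, -1.15, 0.71 and 0.69. The tail subunit Med23 was called at 1.16 (SE 0.30, limma adjusted p = 0.00789) as deposited but not after scaling (0.74, limma adjusted p = 0.0583). The kinase module had no call among its 4 subunits.

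Ncoa6, a partner of the MLL3 and MLL4 methyltransferases, rose from 9.51 to 20.62 RPM in C17.2a and from 10.48 to 20.48 RPM in C17.2b (0.97, SE 0.20, limma adjusted p = 0.0022, and 0.51 scaled). Ncoa7 fell from 38.35 to 13.47 RPM and from 37.08 to 12.61 RPM (-1.46, SE 0.20, limma adjusted p = 0.00025). None of the 3 p160 coactivators was called. The acetyltransferases Kat2a (0.93, SE 0.18) and Kat2b (1.09, SE 0.20) rose, by 0.46 and 0.62 when scaled, while Ep300 was called lower after scaling only. Prmt5, which makes symmetric dimethylarginine, rose from 35.64 to 85.74 RPM and from 34.62 to 98.07 RPM (1.36, SE 0.15, limma adjusted p = 9.45e-05, and 0.88 scaled). Prmt2 fell from 100.2 to 22.15 RPM and from 92.68 to 34.45 RPM (-1.77, SE 0.20, limma adjusted p = 0.000104, and -1.09 with all 12 libraries except the C17.2a 24 h pair). Prmt8, the membrane-bound enzyme of neural tissue, fell from 889.44 to 410.83 RPM and from 1396.45 to 603.47 RPM (-1.16, SE 0.24, limma adjusted p = 0.00269). Prmt3, found with ribosomes, fell by 0.44 (SE 0.15, limma adjusted p = 0.0312, and -0.92 scaled), and no sirtuin was called under both scalings.

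**Figure D3:**
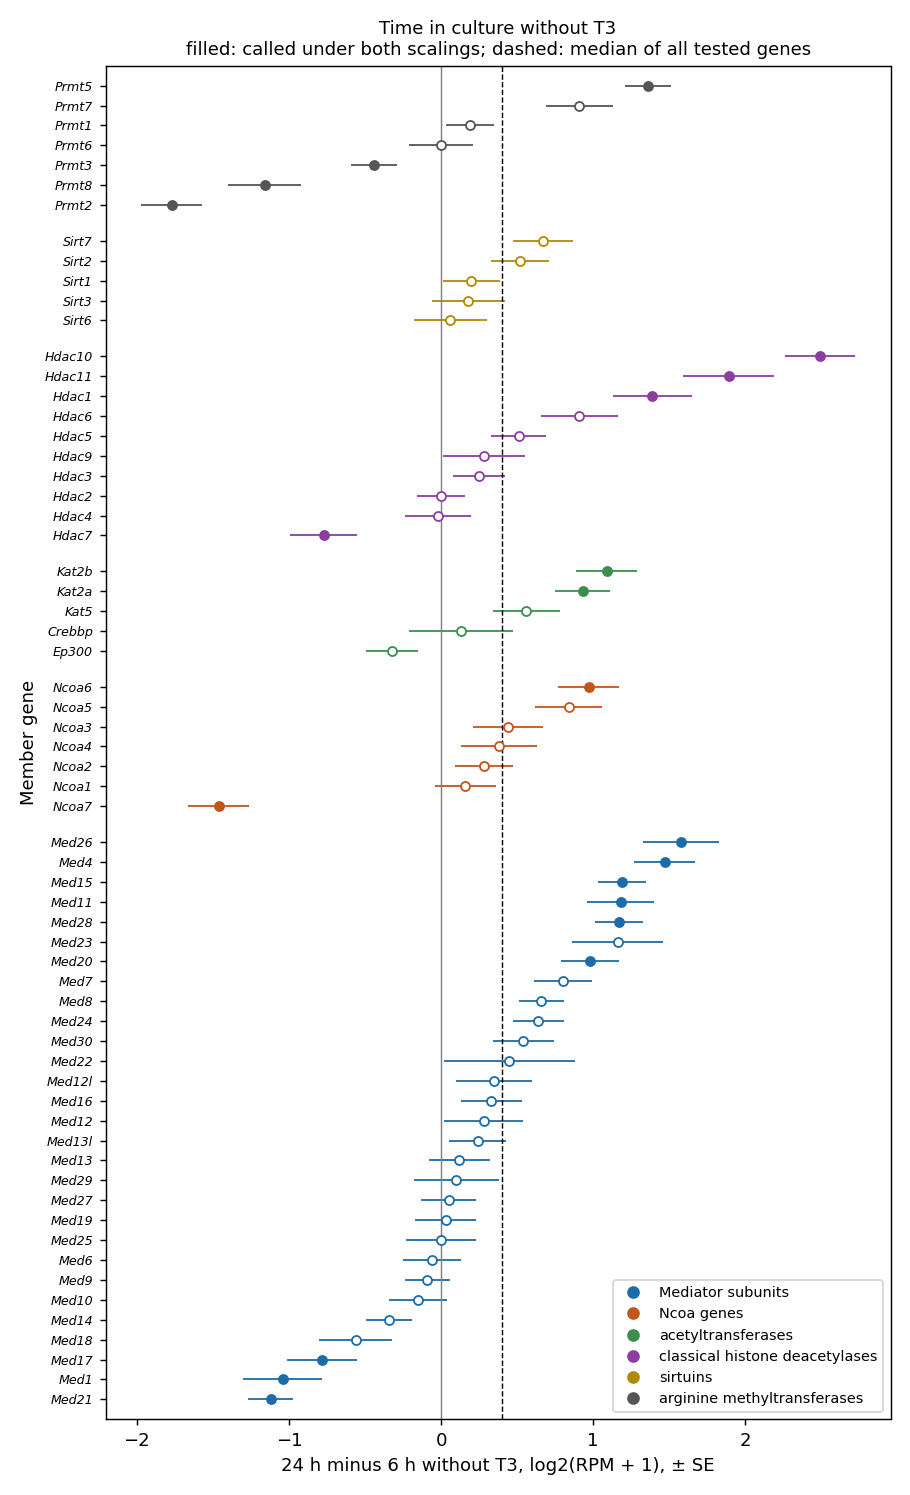
Difference between 24 h and 6 h without T3 on the log2(RPM + 1) scale, with its SE, for the 63 tested members, coloured by family, with filled points for the 21 called under both scalings and a dashed line at the median of all genes, 0.40. Hdac10 lies highest at 2.49 and Prmt2 lowest at -1.77.

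**Figure D4:**
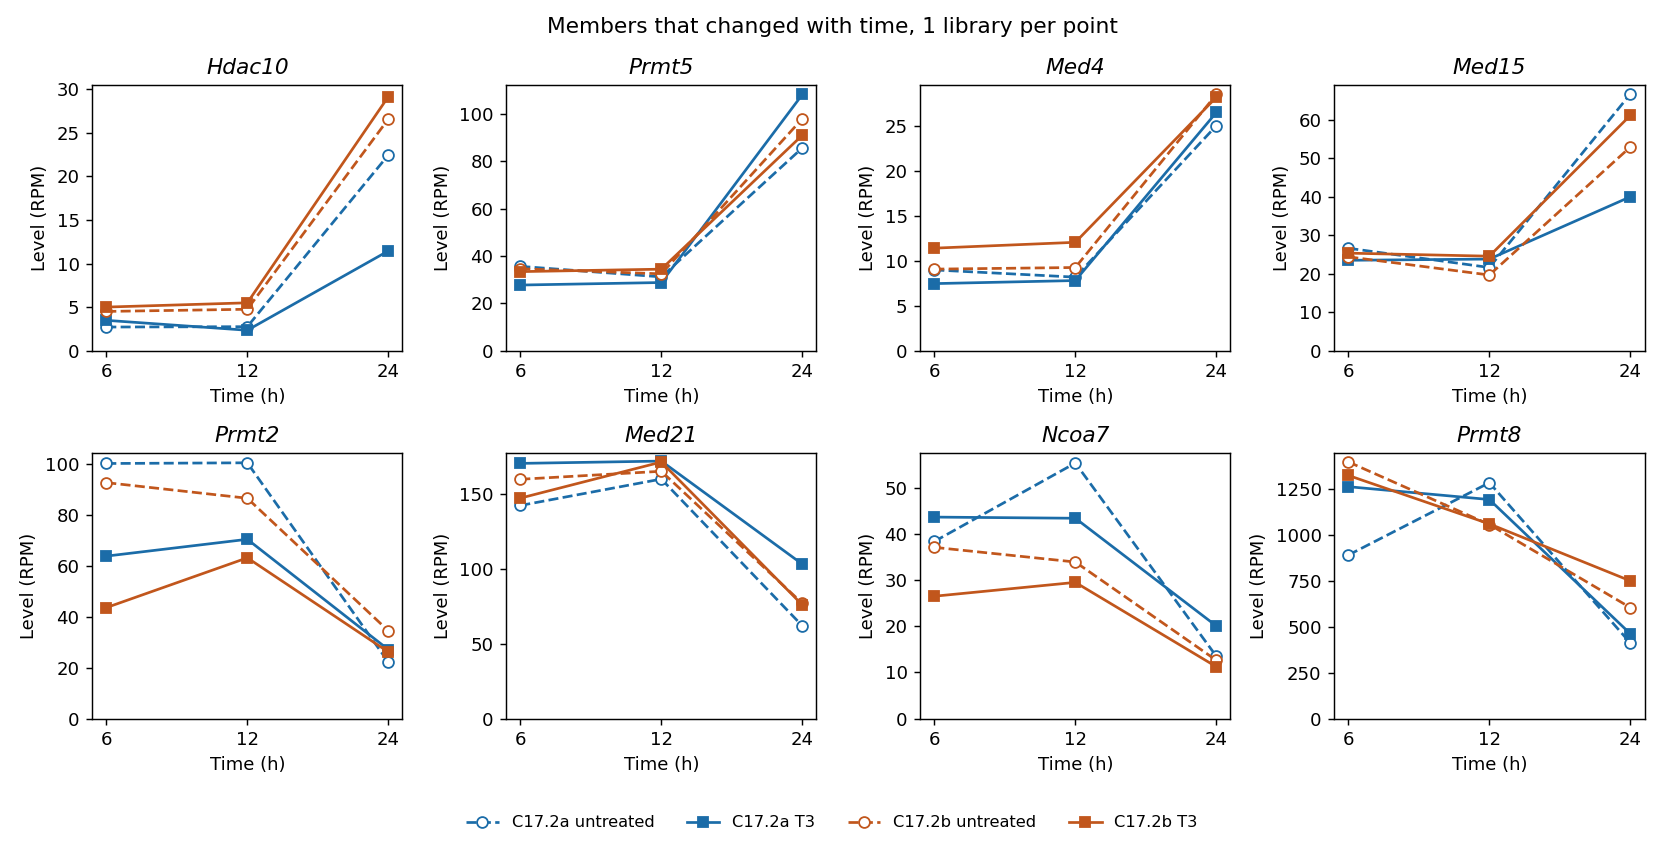
Levels in RPM on linear axes from 0 against time in hours for 4 members that rose and 4 that fell, 1 library per point, with open markers for untreated and filled markers for T3. In the untreated libraries the larger step lies between 12 and 24 h in both lines, as for Hdac10 in untreated C17.2a cells at 2.71, 2.75 and 22.46 RPM.

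The libraries with T3 were not used in that test. Over both treatments, all 4 libraries of 24 h lay above all 8 earlier ones for 13 of 64 members (20.3%, against 26.5% of genes) and below them for 7 (10.9%, against 6.6%). Those below were Hdac7, Med17, Med18, Med21, Ncoa7, Prmt2 and Prmt8. Without the C17.2a T3 24 h library the counts were 26 (40.6%, against 39.6%) and 10 (15.6%, against 9.84%).

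**Figure D5:**
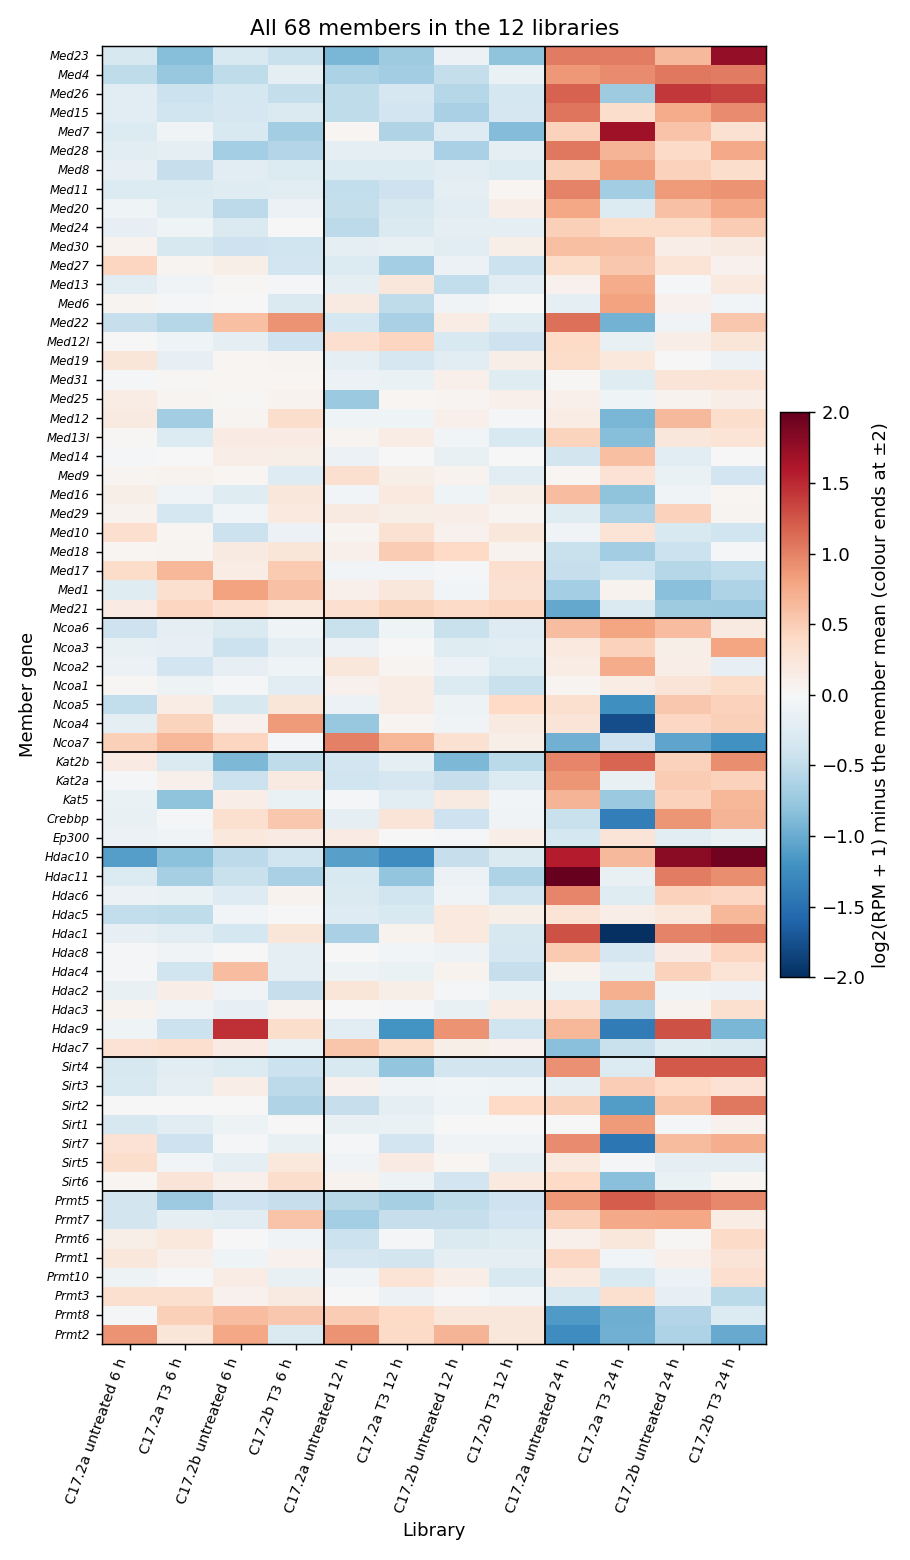
Each of the 68 members (rows) in the 12 libraries (columns) as log2(RPM + 1) minus the mean of that member, with colours ending at 2 above and below. The 24 h columns differ from the 6 and 12 h columns, and the C17.2a T3 24 h column differs from the other 24 h columns in genes such as Hdac1 and Sirt7.

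Genes that work with the members were read from further lists. With T3, of 23 genes of the Sin3, NuRD and CoREST deacetylase complexes 1 was called, Rcor2 (0.42, SE 0.08, limma adjusted p = 0.0182). Of 30 genes of acetyltransferase complexes 2 were called higher, Phf17 (0.77, SE 0.16, limma adjusted p = 0.0232) and Supt7l (0.39, SE 0.09, limma adjusted p = 0.0434). Of 18 SWI/SNF remodelling genes 2 were called higher, Arid2 (0.53, SE 0.12, limma adjusted p = 0.035) and the ATPase Smarca4 (0.56, SE 0.14, limma adjusted p = 0.0463). After median-ratio scaling the calls of Rcor2 (limma adjusted p = 0.0593), Supt7l (0.0653), Arid2 (0.0734) and Smarca4 (0.0554) were lost. That of Phf17 was lost in 4 of 12 alternatives, without the pair block (limma adjusted p = 0.242) and when 1 of 3 pairs was left out (0.0736 to 0.09). Hr was the 1 call among 11 other receptor coregulators. The 3 genes of the Mediator kinase and the 8 acetyl and methyl transferases under other names, among them Myst1 to Myst4, had none. With T3 no gene of these lists was called lower, and 6 of 93 were called (6.45%), next to 6.45% of all genes in either direction. Without T3 the 24 h level of the Sin3, NuRD and CoREST genes was called higher for 10 and lower for 3 of 23, or 6 and 7 after scaling. For the acetyltransferase complexes these counts were 13 and 6 of 30, or 7 and 9 after scaling. Among all genes 43.0% were called higher and 13.1% lower, or 23.9% and 26.6% after scaling.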

How the data were processed

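The authors deposited 1 table of 12774 gene symbols and 12 columns in RPM, a unit read from column sums that were alike. Per the submitters' processing notes the build was mm9. For the aligner, the assignment of tags to genes and the use of strand the sources used here give nothing. Entries of N/A were read as 0. The step between low values gave the implied depth, and 90.0% to 93.8% of low values were whole multiples of it within 0.0055 RPM, so whole tags could not be recovered, and no count test was applied.

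From these values log2(RPM + 1) was analysed with limma 3.58.1 in R 4.3.3 (lmFit, eBayes with a trend, Benjamini-Hochberg adjustment over all genes tested, threshold 0.05). A fold on this scale understates the change of low genes. A gene entered a fit if 3 or more of its libraries had 1 RPM or more: 10577 for T3 and 10192 without it. Pairs of line and time were blocks for T3 (5 residual degrees of freedom for the shared response, 4 by line, 3 by time). Untreated fits had line and time as terms and 2. Single pairs were described by ratios of at least 2-fold with at least 50 tags and a prior of 2 tags, with no test. Promoters were matched by symbol to RefSeq (GRCm38.p6) for 58 of 68 members.

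Members and lists were chosen with earlier results of these data known. Named were all called members (at most 12 in each direction, with the others counted), or the 5 smallest p where none passed, 13 members fixed by role, members past 2-fold in a pair, and up to 4 genes per partner list. Some genes were named beyond this rule after their values were seen: Hdac4, Hdac11, Med13, Med27, Ncoa4 and Prmt2 for the shared response, and Ncoa6 for time. Some genes that the rule picks are left out of the text. The script was tested on simulated data. Alternatives were median-ratio scaling, no filter or 5 RPM, pseudocounts of 0.5 and 5, no pair block, each line alone, additive line and time terms, all 12 libraries for the untreated comparisons, and leaving out each pair or time. The fit of all 12 libraries without the C17.2a 24 h pair was chosen after seeing the data.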

Additional observations from a re-analysis of the deposited data

How the results depend on the processing

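The number of members called for the shared T3 response, 1, became 0 with a filter at 5 RPM, which leaves Hdac9 out, and 0 without the pair block. Of all genes 6.97% and 1.52% were called in these 2 settings. When 1 pair was left out the count ranged from 0 to 4 members, beside 3.03% to 15.0% of genes. In C17.2b the count of 0 became 1 with median-ratio scaling (3.06% of genes), 1 with a pseudocount of 5 (3.12%) and 2 with that line alone (10.7%). Without 1 pair it ranged from 0 to 2, beside 0.37% to 11.3% of genes. In C17.2a it stayed at 0 in every alternative run. At 6 h and at 12 h it became 1 only in the fits without a 24 h pair. Beside it stood 6.54% and 6.59% of genes at 6 h and 6.64% and 6.67% at 12 h. At 24 h the count of 1 became 0 at the 5 RPM filter and 0 with a pseudocount of 5, and ranged from 0 to 30. For 24 h against 6 h of T3 it ranged from 0 to 24, with the 24 from the fit without the C17.2b 24 h pair. In that fit the lone 24 h pair is fitted exactly, so the spread comes from the 6 and 12 h pairs only. The shares of all genes called there are given above, and any further cause was not tested. Between untreated lines the count of 3 became 1 without a filter (5.03% of genes), 5 with all 12 libraries (10.6%) and 8 with all 12 but the C17.2a 24 h pair (17.8%), and ranged from 0 to 3 without 1 time. For time without T3 the count of 32 kept within 1.5 times in every alternative, at 27 with median-ratio scaling. Leaving out a line could not be fitted there.

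Differences near 0 changed sign. Crebbp became 0.00 with median-ratio scaling, 0.02 with a pseudocount of 5 and 0.18 and 0.04 without the C17.2a or the C17.2b 24 h pair. The ranges without 1 pair were -0.09 to 0.18 for Crebbp, -0.16 to 0.02 for Ncoa2, -0.65 to 0.16 for Hdac1, -0.07 to 0.17 for Hdac2, -0.12 to 0.12 for Hdac3, -0.14 to 0.19 for Kat2a and -0.09 to 0.04 for Prmt1. Without the C17.2a 24 h pair the values were Hdac1 0.16, Hdac2 -0.07, Hdac3 0.12, Kat2a 0.19 and Prmt1 0.04, and Ncoa2 became 0.01 without the C17.2a 6 h pair and 0.02 without the C17.2b 24 h pair. None of these passed the limma test in any setting. Over all genes the shared T3 count of 682 was 161 without the pair block and 319 to 1554 without 1 pair. Low tag numbers limit Hdac9, and 1 library per group leaves the spread between cultures unmeasured. Of 762 differences of named genes recomputed under these alternatives, 678 kept their direction and their side of the threshold. Another 58 lost a call, 15 gained one and 11 changed sign. The 762 include genes far from the threshold, such as Ncoa1, so the count says little about the calls. Med28 lost its call between lines in 7 of 10 alternatives and Smarca4 its T3 call in 8 of 12. Hdac9 lost its shared T3 call in 2 of 11 and Hr in 0 of 12.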
